A study of Mus musculus with 6 samples.

Results

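Messenger RNA of 10 heat shock genes was followed across 6 bulk RNA-seq samples of fibroblasts from the enthesis, the place where tendon or ligament is anchored to bone. The genes were taken by symbol from a table of 17419 genes: Hspa1a, Hspa1b, Hspa8, Hsph1, Hsp90aa1, Hsp90ab1, Dnaja1, Dnajb1, Hspb1 and Hspd1. All 10 were found, and all 10 passed the filter on low counts. The 3 diseased samples (titled NTS) and the 3 un-diseased samples (titled UN) both came from SKG mice, a strain that carries a mutation of Zap70 and is prone to autoimmune arthritis. The labels number the samples of each group 1 to 3 and explain neither title. They give no age, sex, agent or time, and they leave unsaid whether each sample was its own animal or culture. The p-values therefore describe the scatter among these 6 samples alone, which could be technical.

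Heat shock proteins are chaperones, which bind unfolded or freshly made proteins and help them fold, or hold them until they can be degraded. HSP70 proteins work through cycles of ATP hydrolysis that J-domain proteins start and exchange factors such as HSP110 end, and HSP90 takes over partly folded kinases and receptors. Misfolded protein, heat and other stress free the transcription factor HSF1, which binds inverted repeats of GAA in promoters and raises the inducible members many times over, while constitutive members such as Hspa8 and Hsp90ab1 are abundant in unstressed cells.

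Hspa1a and Hspa1b, the stress-inducible HSP70 genes, are neighbours on chromosome 17 (GRCm38), from 34969359 to 34972156 and from 34956429 to 34959238, both on the minus strand and each with 1 exon. Their coding sequences, of 1923 and 1926 bases without the stop codon, were 99.4% identical in GENCODE transcripts, with 8 mismatched bases and 3 gap positions. Hspa1a was far less like the constitutive Hspa8, at 74.2% identity. In all 6 samples the estimated counts of Hspa1a and Hspa1b were not whole numbers, whereas those of the other 8 genes were whole in every sample. How reads were divided between Hspa1a and Hspa1b is therefore uncertain, and their sum is given as well.

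The 250 bases before the annotated start of 4 members are shown as examples: a neighbouring pair with nearly the same window, a window with 2 matches and a window with none. Bases in capitals match GAANNTTC or TTCNNGAA, 2 inverted GAA units of the heat shock element. Both patterns read the same on either strand, and sequences are those of RefSeq on GRCm38.p6.
Hspa1a (chr17:34972157-34972406, minus strand): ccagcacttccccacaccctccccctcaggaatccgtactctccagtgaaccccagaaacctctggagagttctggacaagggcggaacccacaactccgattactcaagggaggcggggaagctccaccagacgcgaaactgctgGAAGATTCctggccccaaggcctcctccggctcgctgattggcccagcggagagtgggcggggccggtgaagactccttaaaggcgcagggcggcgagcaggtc
Hspa1b (chr17:34959239-34959488, minus strand): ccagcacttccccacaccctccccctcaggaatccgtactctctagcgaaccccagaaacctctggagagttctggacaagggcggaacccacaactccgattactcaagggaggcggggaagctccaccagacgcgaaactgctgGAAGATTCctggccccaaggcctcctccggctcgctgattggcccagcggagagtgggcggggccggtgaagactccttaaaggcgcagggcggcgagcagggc
Hspb1 (chr5:135887669-135887918, plus strand): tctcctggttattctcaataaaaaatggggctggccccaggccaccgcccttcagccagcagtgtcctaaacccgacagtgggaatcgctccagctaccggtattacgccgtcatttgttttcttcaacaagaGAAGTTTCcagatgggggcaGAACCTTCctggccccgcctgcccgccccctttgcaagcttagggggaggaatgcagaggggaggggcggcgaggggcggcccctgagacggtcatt
Dnajb1 (chr8:83607925-83608174, plus strand): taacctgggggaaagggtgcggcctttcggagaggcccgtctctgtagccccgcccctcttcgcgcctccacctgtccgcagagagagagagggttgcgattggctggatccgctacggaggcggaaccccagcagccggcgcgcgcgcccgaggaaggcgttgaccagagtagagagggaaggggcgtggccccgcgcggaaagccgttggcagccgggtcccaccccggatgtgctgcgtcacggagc
The windows of Hspa1a and Hspa1b differed at 3 of 250 bases, and both held GAAGATTC starting 104 bases before the gene start. Hspb1 held 2 matches, and the window of Dnajb1 shown here held none of these letters. Of the 10 members, 7 were matched in the RefSeq promoter table (Hspa8, Hsp90aa1 and Hsp90ab1 were not). Counting every annotated start, 6 of these 7 held such a match, against 12.2% of the 10570 tested genes with an entry and 12.8% of all 32851 windows. In Hsph1 it was TTCTCGAA, in Dnaja1 GAAAATTC and in Hspd1 the longer run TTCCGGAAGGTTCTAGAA. The run of Hspd1 was the only match among these 7 members of 3 units (either pattern extended by NN and a further inverted unit, so that it contains matches of 2 units), a form found in 0.466% of all windows. These matches are a description of letters and not of binding.

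Total counts per sample lay between 16720605 and 18290870, and the top 20 genes held 18.1% to 23.1% of them. Fibroblast markers were abundant in all 6 samples, with Col1a1 at 15965 to 25592 CPM in diseased and 10798 to 16772 CPM in un-diseased samples (CPM are counts scaled to a common library size after TMM scaling). Dcn went the other way, at 6458.5 to 6909.6 and 9141.5 to 10250.5 CPM. The 12 markers summed to 124089.9 to 158223.8 CPM in diseased and 94866.1 to 130898.9 CPM in un-diseased samples. By edgeR 0 of 12 were called (3 higher and 0 lower with the block), and DESeq2 called 4 higher and 1 lower. All 12 fibroblast and all 10 tendon and enthesis markers were detected. Markers of other cells were low: 19 macrophage and monocyte markers summed to 212.9 to 564.8 CPM in diseased and 46.2 to 279.8 CPM in un-diseased samples, and 12 neutrophil markers to 60.6 to 182.6 CPM and 8.86 to 225.2 CPM. The neutrophil values, like those of macrophages, overlapped between groups. Without a block, edgeR called 0 of 18 tested macrophage markers and DESeq2 called 3 higher. With the replicate number as a block, 17 of the 18 were higher in diseased samples by edgeR, where 10.5% of tested genes were higher. The part of these markers in the heat shock levels was not tested. Of 19 macrophage markers 0 were at 0 in all samples, and Fcgr1 was at 0 in some. T and B cell markers summed to 2.89 to 7.97 and 3.70 to 9.20 CPM in diseased and un-diseased samples, endothelial ones to 47.6 to 65.4 and 58.7 to 85.0, pericyte and smooth muscle ones to 105.2 to 131.6 and 117.6 to 142.3, adipocyte ones to 103.7 to 218.4 and 260.0 to 328.7, and skeletal muscle ones to 2.43 to 2.99 and 3.01 to 5.68. Tendon and enthesis markers summed to 11422 to 14818 CPM in diseased and 8101 to 9129 CPM in un-diseased samples. By edgeR 3 of 10 were higher and 1 lower (5 and 1 with the block). Over all tested genes 1.61% were higher and 2.13% lower (10.5% and 13.3% with the block). The groups did not overlap in the sums of tendon and enthesis, adipocyte and skeletal muscle markers. Among single tested genes 31.9% had groups that did not overlap. The skeletal muscle sums were very low, with 1 of 7 markers tested and Myh4, Myh1 and Tnnc2 at 0 in some samples. The part of all these markers in the heat shock levels was not tested. The samples are bulk, so fewer cells of a type and less RNA per cell cannot be told apart. Un-diseased replicate 1 stood apart from the other 5 samples in the heat shock genes. Results on the members are therefore given with and without it. Its macrophage sum (123.8 CPM) lay between those of the other un-diseased samples, and its total count (17864659) was within the range of the others. Over all tested genes it also differed from its group, with a chi-square per gene of 61.7 and 61.3 against un-diseased replicates 2 and 3. Those were at 25.3 against each other. Diseased replicates 1 and 2 were as far apart, at 60.9.

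Across all samples no heat shock member was called different between diseased and un-diseased fibroblasts. By edgeR's quasi-likelihood test with adjustment over all genes, 0 of 10 were higher and 0 of 10 lower, where 1.61% of the 13264 tested genes were higher and 2.13% lower (3.73% in either direction). No member had an unadjusted p below 0.05, and DESeq2 and limma-voom called 0 of 10 each. By edgeR the members' log2 fold changes, diseased minus un-diseased, were all negative and small, from -0.45 for Hsp90aa1 to -0.01 for Hspa1a. Their median was -0.22 against 0.02 over all tested genes. The sign depended on the fit. With limma-voom it was positive for Hspa1a (0.59), Hspa1b (0.44), Hsph1 (0.19) and Dnajb1 (0.16), and negative for the other members. The groups overlapped for all 10 members, whereas 31.9% of tested genes had groups that did not overlap. In the authors' deposited table, too, 0 of 10 had a q-value below 0.05; the lowest was 0.305, for Hsp90aa1. What varied was the level from sample to sample.

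Hspa1a had 539.0, 378.2 and 926.7 CPM in diseased replicates 1, 2 and 3, and 1454.8, 167.8 and 236.0 CPM in the un-diseased ones. Un-diseased replicate 1 was the highest of all 6 samples and the other 2 un-diseased samples were the lowest. The diseased samples lay in between. The means were 614.6 ± 282.0 and 619.6 ± 724.2 CPM (SD, n = 3 each), and the log2 fold change was -0.01 (SE 0.78, adjusted p = 0.993 by edgeR). Hspa1b had 673.5, 507.0 and 1151.6 CPM in diseased samples and 2072.0, 236.7 and 336.2 CPM in un-diseased samples. Its order of samples was that of Hspa1a, and its log2 fold change was -0.18 (SE 0.78, adjusted p = 0.895 by edgeR). Hspa1b counts were 1.24 to 1.34 times those of Hspa1a in diseased and 1.41 to 1.42 times in un-diseased samples. Summed, the pair had 1212.5, 885.2 and 2078.3 CPM in diseased and 3526.9, 404.5 and 572.2 CPM in un-diseased samples, with a log2 fold change of -0.11 (SE 0.78, adjusted p = 0.938 by edgeR).

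Hspa8, the constitutive cytosolic HSP70 (chromosome 9, 40801276 to 40805202, 9 exons), was steadier. It had 2022.0, 3382.3 and 2972.9 CPM in diseased samples and 4172.6, 2827.4 and 3100.7 CPM in un-diseased samples. Un-diseased replicate 1 was again the highest, diseased replicate 1 was the lowest, and the other 4 samples were mixed. Its log2 fold change was -0.27 (SE 0.25, adjusted p = 0.489 by edgeR). The highest sample was 2.06 times the lowest, against 8.67 times for Hspa1a and 8.75 times for Hspa1b.

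**Figure D1:**
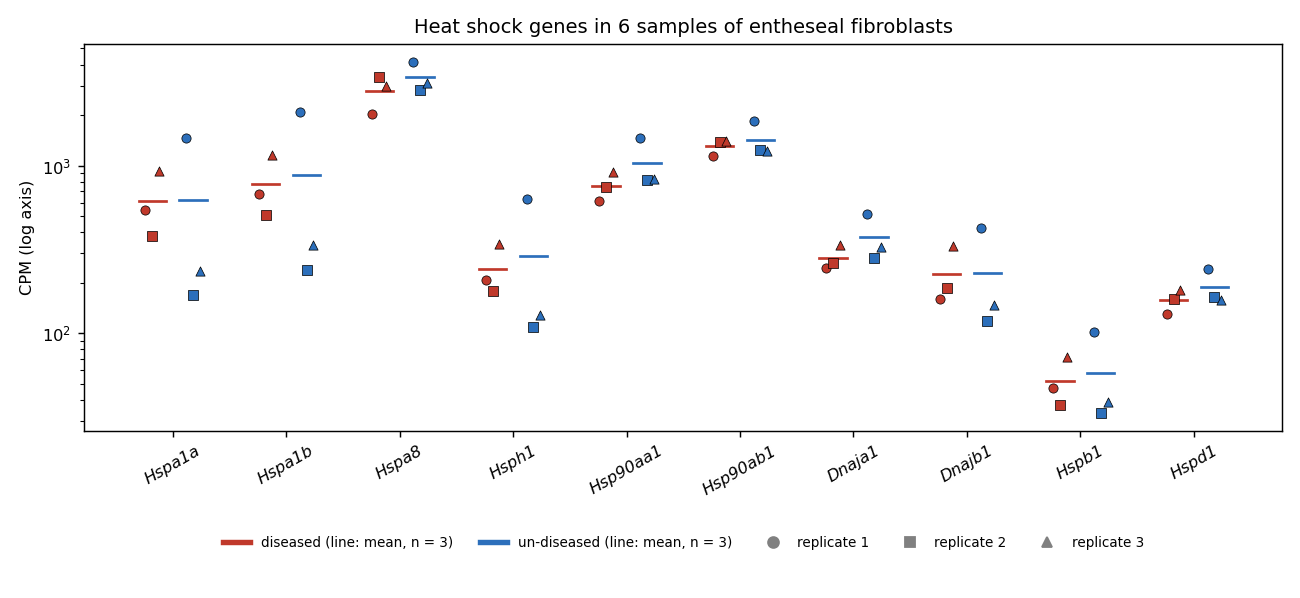
CPM of the 10 heat shock genes on a log axis in 3 diseased (red) and 3 un-diseased (blue) samples; the symbol gives the replicate number and the line the group mean. The circle of un-diseased replicate 1 is the highest point for every gene, and the other un-diseased samples are the lowest for Hspa1a, Hspa1b, Hsph1 and Dnajb1.

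Hsph1 encodes HSP110, which releases nucleotide from HSP70 and holds unfolded protein (chromosome 5, 149616843 to 149636498, 18 exons). It had 208.0, 179.4 and 340.4 CPM in diseased samples, against 632.1, 109.4 and 128.3 CPM in un-diseased samples. The order of samples was that of Hspa1a, with a range of 5.78 times and a log2 fold change of -0.26 (SE 0.65, adjusted p = 0.817 by edgeR). Dnajb1, the J-domain protein HSP40 that delivers clients to HSP70 (chromosome 8, 83608175 to 83612653), had 159.9, 186.3 and 330.8 CPM in diseased and 421.0, 118.7 and 147.3 CPM in un-diseased samples. Un-diseased replicate 1 led, diseased replicate 3 came next, and un-diseased replicates 2 and 3 were lowest. Its log2 fold change was -0.02 (SE 0.50, adjusted p = 0.98 by edgeR). Dnaja1, a farnesylated J-domain protein (chromosome 4, 40722468 to 40734965), varied less. It had 242.9, 263.2 and 333.9 CPM in diseased samples and 515.5, 279.9 and 327.3 CPM in un-diseased samples. Apart from un-diseased replicate 1 the groups were interleaved, and its log2 fold change was -0.42 (SE 0.24, adjusted p = 0.291 by edgeR).

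The HSP90 genes, whose coding sequences were 75.7% identical, differed in their range over the samples. Hsp90aa1, the inducible form (chromosome 12, 110691036 to 110696395), had 615.4, 743.7 and 911.3 CPM in diseased samples and 1462.8, 822.1 and 826.6 CPM in un-diseased samples. Diseased replicates 1 and 2 were below all un-diseased samples, and diseased replicate 3 was not. Its log2 fold change was the most negative of the 10, at -0.45 (SE 0.27, adjusted p = 0.294 by edgeR). Hsp90ab1, the constitutive form (chromosome 17, 45567778 to 45573261), had 1139.9, 1384.6 and 1391.5 CPM in diseased samples and 1839.5, 1229.2 and 1217.2 CPM in un-diseased samples. Its range of 1.61 times was the smallest of the 10 members. Its log2 fold change was -0.13 (SE 0.21, adjusted p = 0.699 by edgeR).

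Hspb1, the small heat shock protein HSP27 family member that forms oligomers around unfolded protein (chromosome 5, 135887919 to 135889563), had 47.0, 37.2 and 71.5 CPM in diseased samples. In un-diseased samples it had 101.4, 33.3 and 38.7 CPM. Un-diseased replicate 1 and diseased replicate 3 were the highest, the other 4 samples lay close together, and the log2 fold change was -0.16 (SE 0.44, adjusted p = 0.834 by edgeR). Hspd1, the mitochondrial chaperonin HSP60 (chromosome 1, 55077833 to 55088243, minus strand), had 130.3, 159.4 and 180.5 CPM in diseased and 241.7, 164.5 and 158.5 CPM in un-diseased samples. Only un-diseased replicate 1 stood above the rest, and the log2 fold change was -0.26 (SE 0.20, adjusted p = 0.40 by edgeR). Hspd1 overlaps its plus-strand neighbour Hspe1 by 96 bases, and whether counting used strand is not given in the sources used here. The estimated counts behind these values were between 532 (Hspb1, un-diseased replicate 2) and 80060 (Hspa8, un-diseased replicate 1).

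Per kilobase of the longest coding GENCODE transcript, median levels over the 6 samples were highest for Hspa8 (1268.5 CPM per kb), Hsp90ab1 (518.6) and Hsp90aa1 (251.2). Hspa1b (210.6) and Hspa1a (154.6 CPM per kb) followed. The other 5 members had medians between 46.1 for Hspb1 and 66.8 CPM per kb for Hspd1 and overlapped across samples. The order depended on the sample: Hspa1b was at 739.2 CPM per kb in un-diseased replicate 1, beside Hsp90ab1 at 730.0 CPM per kb, and at 84.4 against 487.8 CPM per kb in un-diseased replicate 2.

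Un-diseased replicate 1 was the highest sample for 10 of 10 members, as it was for 14.9% of tested genes. Diseased replicate 3 was next highest for 9 of 10, all but Hspa8; un-diseased replicate 1 highest and diseased replicate 3 next was the order of 2.25% of tested genes. Relative to the mean of un-diseased replicates 2 and 3, un-diseased replicate 1 was 7.21-fold for Hspa1a, 7.23-fold for Hspa1b, 5.32-fold for Hsph1, 3.17-fold for Dnajb1 and 2.82-fold for Hspb1. The other 5 members were 1.41-fold (Hspa8) to 1.77-fold (Hsp90aa1). A ratio of at least 2-fold was reached by those 5 members and by 1.56% of tested genes. Ordered by this log2 difference among the 13264 tested genes, Hspa1b was at rank 2, Hspa1a at 3, Hsph1 at 6, Dnajb1 at 20 and Hspb1 at 30. The highest of the others was Hsp90aa1, at rank 363. The within-group SD of log2 CPM was 0.65 in diseased and 1.67 in un-diseased samples for Hspa1a, while the median over tested genes was 0.18 and 0.20.

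**Figure D2:**
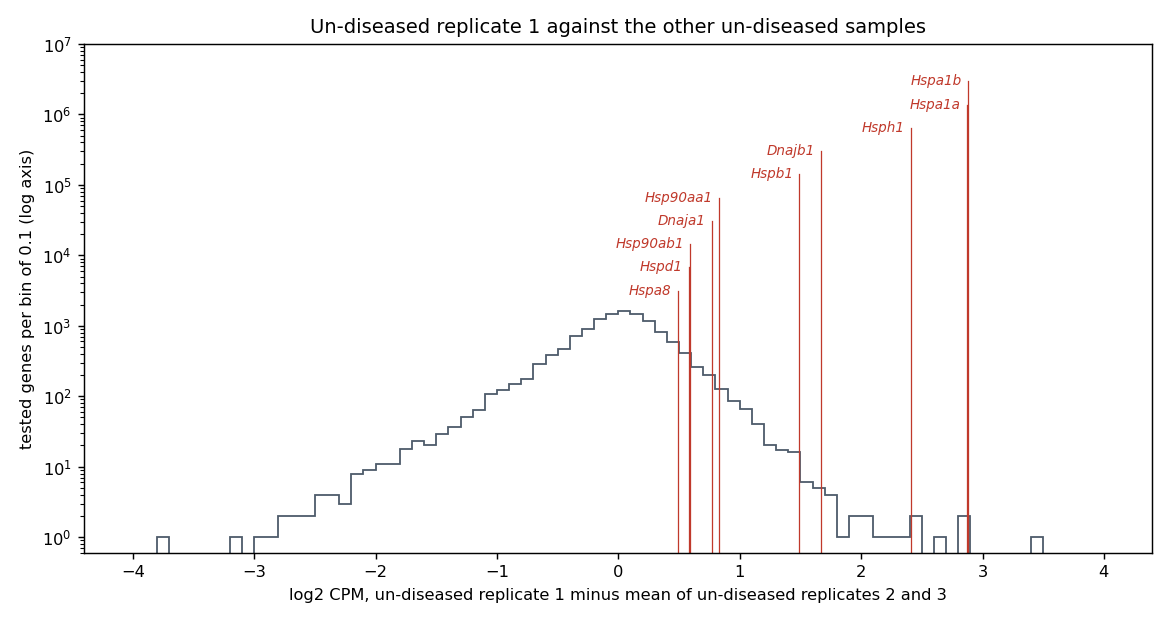
Number of tested genes (log axis) by the log2 CPM difference between un-diseased replicate 1 and the mean of un-diseased replicates 2 and 3. Red lines mark the 10 members (their height only separates the labels), from 0.49 for Hspa8 to 2.88 for Hspa1b, around a median of 0.01 over all tested genes.

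Over all genes, same-numbered samples tended to depart from their group means in the same direction, so differences were also taken within numbers. For number 1 this did not hold in the members. Every member was below its group mean in diseased replicate 1 and above it in un-diseased replicate 1 (Hspa1a by -0.09 and 1.91 in log2 CPM). The labels state no pairing, so blocked results depend on a pairing read from these same data. In pair 1 all 10 members were lower in the diseased sample, with log2 differences between -1.62 for Hspa1b and -0.69 for Hsp90ab1. In pairs 2 and 3 the 5 members with the largest excess in un-diseased replicate 1 were higher in the diseased sample. That excess is taken over un-diseased replicates 2 and 3, which are also subtracted in these pairs. Choosing members by it therefore favours positive differences, and these are given as description only. Hspa1a differed by 1.17 in pair 2 and 1.97 in pair 3, Hspa1b by 1.10 and 1.78, Hsph1 by 0.71 and 1.41, Dnajb1 by 0.65 and 1.17, and Hspb1 by 0.16 and 0.88. The other 5 members stayed near 0 there, between -0.14 (Hsp90aa1, pair 2) and 0.26 (Hspa8, pair 2). Lower in pair 1 and higher in pairs 2 and 3 was the pattern of 6 of 10 members and of 8.32% of tested genes. With the replicate number as a block, 0 of 10 members passed by edgeR, where 10.5% of tested genes were higher and 13.3% lower (23.9% in either direction), and none had an unadjusted p below 0.05. DESeq2 with the block also called 0 of 10. The blocked log2 fold change was 0.63 for Hspa1a (SE 0.57, adjusted p = 0.441) and 0.49 for Hspa1b (SE 0.58, adjusted p = 0.56). Hsph1 at 0.21 and Dnajb1 at 0.17 also had the opposite sign to the fit without the block.

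**Figure D3:**
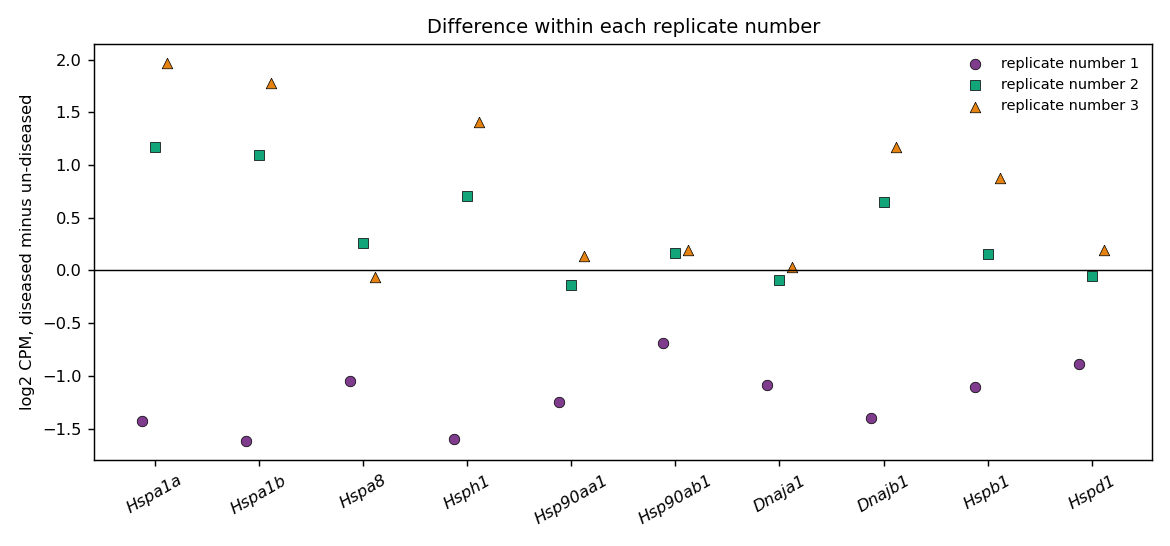
Difference in log2 CPM, diseased minus un-diseased, between samples with the same replicate number, for each of the 10 genes. All points of replicate number 1 lie below 0; those of numbers 2 and 3 lie above 0 for Hspa1a, Hspa1b, Hsph1, Dnajb1, Hspb1 and Hsp90ab1.

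Without un-diseased replicate 1 the same 5 members had positive log2 fold changes, as did Hsp90ab1 at 0.09. Hspa1a was at 1.60 (SE 0.40, adjusted p = 0.0572 by edgeR), Hspa1b at 1.44 (SE 0.38, adjusted p = 0.0634) and Hsph1 at 1.03 (SE 0.29, adjusted p = 0.0715). No member passed, where 2.63% of genes were higher and 5.36% lower (7.99% in either direction). In that fit 3 of 10 had an unadjusted p below 0.05. The share of all tested genes with such a p was not taken, here or for the lists below. The mean of the diseased samples was 3.04 times the mean of un-diseased replicates 2 and 3 for Hspa1a, 2.71 times for Hspa1b, 2.04 times for Hsph1, 1.70 times for Dnajb1 and 1.44 times for Hspb1. For the other 5 members this ratio was 0.918 to 1.07. All 3 diseased samples were above both remaining un-diseased samples for 4 of 10 members (Hspa1a, Hspa1b, Hsph1 and Dnajb1) and for 26.2% of tested genes. With the block and without pair 1, so on 2 pairs, these same 4 members were called higher by edgeR, where 7.62% of tested genes were higher. Their adjusted p was 0.00634 for Hspa1a, 0.00696 for Hspa1b, 0.0115 for Hsph1 and 0.0118 for Dnajb1, at log2 fold changes of 1.56, 1.42, 1.05 and 0.90. Un-diseased replicate 1 was singled out because these same genes are highest in it. Leaving it out therefore raises their fold changes, and the p-values without it cannot serve as a test of the members. Leaving out any other sample or pair gave no member call. Without un-diseased replicate 1 the sign changed for 6 of 10 members. Without diseased replicate 1 or 2 it changed at least once for Hspa1a, Hspa1b, Dnajb1 and Hspb1, to values between 0.03 and 0.24.

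**Figure D4:**
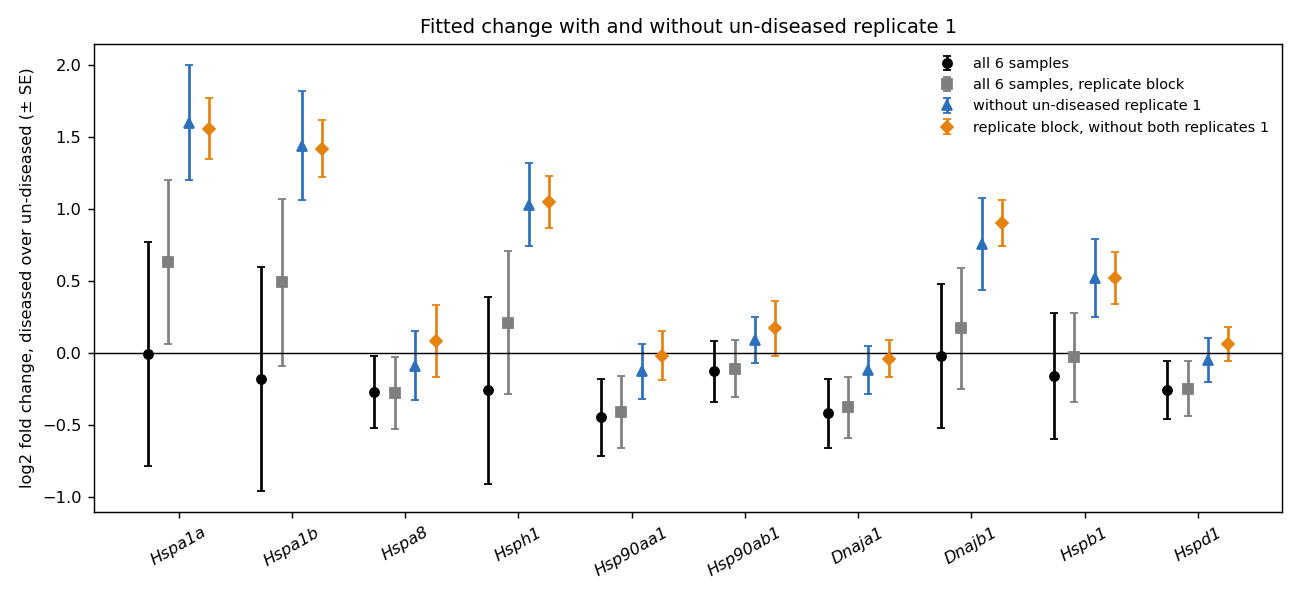
Fitted log2 fold change of each gene, diseased over un-diseased, with its standard error, from 4 fits by edgeR. For Hspa1a the value is -0.01 with all samples, 0.63 with the replicate block, 1.60 without un-diseased replicate 1 and 1.56 with the block and without both replicates 1, whereas for Dnaja1 it is below 0 in all 4.

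The other genes of the chaperone system were read from 9 lists that held 90 tested genes besides the members. Of these, 0 were higher and 1 was lower in diseased samples, with a median log2 fold change of -0.04; with the replicate block 2 were higher and 14 lower. These counts stand beside 1.61% higher and 2.13% lower over all tested genes, and 10.5% and 13.3% with the block. Un-diseased replicate 1 was the highest sample for 18 of the 90, against 14.9% of tested genes. Sirt1, a deacetylase that prolongs DNA binding of HSF1, had 52.8, 64.2 and 57.6 CPM in diseased samples and 111.6, 102.4 and 82.2 CPM in un-diseased samples. It was the gene that fell, at -0.76 (SE 0.14, adjusted p = 0.0351 by edgeR). The groups did not overlap. Its call was lost on leaving out any sample other than un-diseased replicate 1 (adjusted p up to 0.155), at log2 fold changes of -0.88 to -0.67 over the 6 omissions. It passed with the block (adjusted p = 0.00541) and with the block without any 1 pair (0.00402 to 0.0272). Hsf1 itself, named for its role after values were seen, had 18.2, 24.7 and 21.0 CPM in diseased and 23.8, 26.6 and 23.2 CPM in un-diseased samples, at -0.20 (SE 0.14, adjusted p = 0.351 by edgeR). Its un-diseased replicate 1 was within the range of the other samples. Without un-diseased replicate 1 edgeR called lower 3 of 14 other J-domain genes, 1 of 9 HSP70 co-chaperones and 2 of 7 heat shock factors and regulators. It called higher 1 of 15 mitochondrial chaperones and proteases. Over all tested genes 2.63% were then higher and 5.36% lower.

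Of 18 HSF1 target genes outside the members, 0 were higher and 0 lower by edgeR (median -0.22; 5 with an unadjusted p below 0.05; DESeq2 called 0 higher and 2 lower). With the block 0 were higher and 6 lower, where 10.5% of tested genes were higher and 13.3% lower. Without un-diseased replicate 1 and without the block 0 were higher and 0 lower, where 2.63% of tested genes were higher and 5.36% lower. With the block and without pair 1, 4 were higher and 3 lower, where 7.62% of tested genes were higher and 11.7% lower; without pair 2 the counts were 0 and 6, and without pair 3 they were 0 and 1. The 4 that were higher without pair 1, named after their values were seen, were Hspe1, the partner of Hspd1 (0.66, adjusted p = 0.0225 by edgeR), Fkbp4 (0.52, adjusted p = 0.0336), Cacybp (0.46, adjusted p = 0.0307) and Dedd2 (0.68, adjusted p = 0.0388). The 3 that were lower in that fit were Ier5 (-0.78, adjusted p = 0.0233 by edgeR), Dnajb4 (-0.73, adjusted p = 0.0152) and Bag3 (-0.48, adjusted p = 0.0448). For 7 of the 18, un-diseased replicate 1 was the highest sample, against 14.9% of tested genes. Bag3, a target that hands HSP70 clients to autophagy, had 198.5, 284.2 and 308.9 CPM in diseased and 528.9, 395.2 and 422.2 CPM in un-diseased samples. All diseased samples were below all un-diseased ones. Bag3 did not pass, at -0.77 (SE 0.20, adjusted p = 0.0747 by edgeR), but fell with the block (-0.78, adjusted p = 0.0242). Its highest sample was un-diseased replicate 1; with the block and without pair 1 it was at -0.48 (adjusted p = 0.0448), and without pair 3 the call was lost (adjusted p = 0.0671).

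Among 14 other J-domain genes 0 were higher and 0 lower by edgeR, and 6 had an unadjusted p below 0.05. DESeq2 called 0 of the 14 higher and 3 lower, and 637 and 874 of all genes. With the block 4 of the 14 fell, where 13.3% of tested genes fell, and 1 fell without pair 3. Dnajb4, an HSP40 related to Dnajb1, had 140.6, 243.4 and 198.9 CPM in diseased samples and 312.8, 355.1 and 368.6 CPM in un-diseased samples. The groups did not overlap, and un-diseased replicate 1 was the lowest of its group. The log2 fold change was -0.83 (SE 0.20, adjusted p = 0.0638 by edgeR), and with the block it passed (-0.86, adjusted p = 0.00512). Of 9 other HSP70 and HSP110 genes and of 15 mitochondrial chaperones and proteases, none passed by edgeR; 1 and 3 had an unadjusted p below 0.05, and DESeq2 called 0 of the 9 and 1 of the 15. With the block 0 rose and 2 fell of the 9, and 1 rose and 1 fell of the 15, where 10.5% of tested genes rose and 13.3% fell. Without 1 pair or another these counts were 0 to 1 falling of the 9, and 0 to 2 rising and 0 to 1 falling of the 15. Hspa9, the mitochondrial HSP70 mortalin in both lists, had 168.5, 249.7 and 201.4 CPM in diseased and 217.7, 326.5 and 293.7 CPM in un-diseased samples, an overlap of groups. It was at -0.44 (SE 0.20, adjusted p = 0.202 by edgeR) and fell with the block (-0.43, adjusted p = 0.0207), a call lost without pair 2 (adjusted p = 0.0537) and without pair 3 (adjusted p = 0.102).

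HSP90 co-chaperones (16 tested, median 0.04), HSP70 co-chaperones (9, median 0.02), the CCT chaperonin with prefoldin (14, median -0.12) and the other small heat shock proteins (5 of 7 tested, median -0.02) had no call by edgeR either. In these 4 lists 3, 2, 1 and 1 genes had an unadjusted p below 0.05, and DESeq2 called 1 gene, a lower HSP70 co-chaperone. Stip1, which bridges HSP70 and HSP90, had 68.0, 95.4 and 83.4 CPM in diseased and 109.0, 105.0 and 106.1 CPM in un-diseased samples. It did not pass (-0.38, SE 0.13, adjusted p = 0.13 by edgeR) and passed with the block (-0.39, adjusted p = 0.0452). That call was lost without pair 1 (-0.26, adjusted p = 0.136), without pair 3 (adjusted p = 0.154) and with blocked DESeq2 (adjusted p = 0.053). Tcp1, a CCT subunit, was at 136.7 ± 14.6 and 163.7 ± 12.9 CPM (SD, n = 3 each, diseased and un-diseased; adjusted p = 0.208 by edgeR). Hspb8, the small heat shock partner of Bag3, was at 183.7 ± 34.3 and 247.0 ± 2.00 CPM in diseased and un-diseased samples (adjusted p = 0.129 by edgeR, and 0.0391 with the block). Hspb8 no longer passed with the block on leaving out pair 1 (-0.31, adjusted p = 0.124) or pair 3 (adjusted p = 0.141). With the block 1 rose and 2 fell of the HSP90 co-chaperones, 0 and 2 of the HSP70 co-chaperones, 0 and 0 of the CCT list and 0 and 1 of the small heat shock proteins. Over all tested genes 10.5% rose and 13.3% fell with the block. Without 1 pair or another, 0 to 2 rose and 0 to 1 fell of the HSP90 co-chaperones, 0 to 2 fell of the HSP70 co-chaperones and 0 to 2 fell of the small heat shock proteins. Among the 7 tested heat shock factors and regulators 0 rose and 3 fell with the block, and 1 to 3 fell without 1 pair or another.

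Chaperones of the endoplasmic reticulum, a compartment with its own stress response, had un-diseased replicate 1 as the highest sample for 1 of 16 genes, against 14.9% of tested genes. It was also the highest for 1 of 14 genes of the CCT list, 1 of 9 HSP70 co-chaperones, 2 of 14 J-domain genes and 2 of 15 mitochondrial genes. The counts were 5 of 16 HSP90 co-chaperones, 3 of 9 other HSP70 and HSP110 genes and 2 of 5 other small heat shock proteins. Among heat shock factors and regulators the count was 1 of 7. Of the 16 chaperones of the endoplasmic reticulum, 1 rose, 0 fell and 15 did not pass by edgeR, with a median log2 fold change of 0.37. With the block 5 of them rose and 0 fell, where 10.5% of tested genes rose. The blocked count was 7 without pair 1, 1 without pair 2 and 1 without pair 3. Pdia4, a disulfide isomerase, had 123.2, 183.8 and 150.1 CPM in diseased and 81.5, 100.4 and 81.1 CPM in un-diseased samples. It rose by 0.80 on the log2 scale (SE 0.17, adjusted p = 0.0472 by edgeR), a call lost with RLE size factors (adjusted p = 0.0519) and on leaving out any sample (up to 0.171), at log2 fold changes of 0.64 to 0.93. It passed with the block (adjusted p = 0.00269) and with the block without any 1 pair (0.00326 to 0.029).

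Immediate early genes, which are known to be induced within minutes and during dissociation of tissue, were compared by sample. Summed over 18 genes they were at 12172, 12494 and 13715 CPM in diseased samples and 14241, 11478 and 12171 CPM in un-diseased samples. Un-diseased replicate 1 was the highest and diseased replicate 3 next, as for the heat shock genes, but over a narrower range. Un-diseased replicate 1 was the highest sample for 7 of the 18, against 14.9% of tested genes. None of the 18 passed by edgeR (5 had an unadjusted p below 0.05, and DESeq2 called 3 higher and 0 lower). With the block 3 rose and 3 fell, where 10.5% of tested genes rose and 13.3% fell. Without 1 pair or another, 0 to 2 rose and 2 to 3 fell. Without un-diseased replicate 1 edgeR called 1 of the 18 higher and 0 lower, where 2.63% of tested genes were higher and 5.36% lower. Fosb, the most abundant, was level, with 2215.2 ± 173.3 and 2223.4 ± 78.8 CPM in diseased and un-diseased samples (SD, n = 3 each; adjusted p = 0.983 by edgeR). Their part in the heat shock levels was not tested.

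Likeness to the members was measured as Pearson's r of log2 CPM with the mean of the members' z scores over the 6 samples, among the 4747 genes whose log2 CPM averaged 5 or more. The 5 highest were Tbrg1 (0.971), Dnaja4 (0.965), Elmo2 (0.944), Stk11 (0.943) and Sec24c (0.939). All share un-diseased replicate 1 as their highest sample; over the other 5 samples r was 0.882, 0.853, 0.907, 0.741 and 0.898. Dnaja4, a J-domain gene of the lists, averaged 36.5 ± 5.39 CPM in diseased samples and 39.9 ± 18.6 CPM in un-diseased ones (SD, n = 3 each). The order of its samples was that of Hspa1a. Tbrg1 had a much smaller range, with 97.0, 105.2 and 109.4 CPM in diseased and 129.0, 93.9 and 93.9 CPM in un-diseased samples.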

How the data were processed

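RNA of entheseal fibroblasts was isolated by TRIzol, and BGISEQ-500 reads were 150 bases long, per the labels' protocols. The deposited table held estimated counts per gene made by the authors, the authors' mean count per group, their log2 ratio (un-diseased on top) with its p-value, and a q-value; the results of the authors' test served only for comparison. The build GRCm38 and the tools RSEM 1.3.1, HISAT2 2.0.4 and DESeq2 1.4.5 are named, without roles, per the submitters' processing notes. Before fitting, estimated counts were rounded, since 9.6% had a fractional part.

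Groups came from the treatment label. Genes were filtered with filterByExpr (least count 10), scaled by TMM and tested across 13264 genes with edgeR 4.0.16 (R 4.3.3), quasi-likelihood, Benjamini-Hochberg adjusted, threshold 0.05. Log2 CPM used a prior count of 2. DESeq2 1.42.0, limma-voom (limma 3.58.1), a replicate block, 2 other scalings, 2 other filters and leaving out samples or pairs were alternatives. Over all tested genes, same-numbered samples correlated in their deviations from group means (0.487, 0.578 and 0.276 for numbers 1, 2 and 3). Samples of unlike number were at -0.531 to 0.137. In fits with a block the numbers, taken from the titles, were treated as pairs. Deviations from a group mean cancel within the group, so correlations for like and unlike numbers are not independent. The labels state no pairing, so the block rests on these same data and blocked calls depend on it. Samples of a group differed beyond sampling noise (chi-square per gene 25.3 to 61.7). The steps were tested on simulated data that held no replicate effect and no outlying sample, with a spread estimated under the block. That test does not show how the fits handle a sample such as un-diseased replicate 1. Of 17419 gene numbers, 17372 matched the RefSeq table; positions are 1-based.

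The members and lists were chosen with earlier results of these data known. From each of 11 pathway lists up to 3 called genes with the smallest adjusted p were named, or otherwise the most abundant; 5 genes were named for likeness. Other names were chosen after values were seen, and 1 gene that the rule named is not reported here.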

Additional observations from a re-analysis of the deposited data

How the results depend on the processing

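The absence of a call among the 10 members held under 16 of 17 listed alternatives; with the replicate block and without pair 1, 4 were higher. The exception is described above, and its cause was not tested. Over all genes, 1397 were higher and 1770 lower with the replicate block, 808 and 1378 with DESeq2 and the block, 637 and 874 with DESeq2, and 417 higher with upper-quartile factors, against 213 and 282. Leaving out samples gave 2 to 354 higher and 3 to 721 lower; leaving out pairs with the block gave 426 to 1013 (809 without pair 2) and 583 to 1556 (1274 without pair 2).

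Direction changed in 36 of 170 member values. With the block, limma-voom and blocked DESeq2 the log2 fold change was 0.63, 0.59 and 0.63 for Hspa1a, 0.49, 0.44 and 0.48 for Hspa1b, 0.21, 0.19 and 0.21 for Hsph1, and 0.17, 0.16 and 0.16 for Dnajb1; the summed pair was at 0.55 with the block, a setting added after seeing the data. Upper-quartile factors gave 0.04 for Hspa1a, 0.04 for Dnajb1 and 0.07 for Fosb. Over samples left out, and over pairs left out with the block, the ranges were -0.46 to 1.60 and -0.14 to 1.56 for Hspa1a (0.27 without pair 2), -0.63 to 1.44 and -0.27 to 1.42 for Hspa1b, -0.65 to 1.03 and -0.46 to 1.05 for Hsph1, -0.40 to 0.76 and -0.38 to 0.90 for Dnajb1, -0.46 to 0.52 and -0.50 to 0.52 for Hspb1, -0.23 to 0.09 and -0.26 to 0.17 for Hsp90ab1, -0.43 to -0.08 and -0.55 to 0.08 for Hspa8, -0.38 to -0.05 and -0.47 to 0.06 for Hspd1, and -0.05 to 0.06 and -0.07 to 0.07 for Fosb. Hsp90aa1 and Dnaja1 stayed negative in all 17. The block over all 3 pairs changed no member's call. Every member had at least 532 estimated counts in each sample, and with 3 samples a group the spread between samples, not depth, sets the standard errors.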
